A study of Mus musculus with 10 samples.

Results

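The genes described here encode enzymes, cytokines and receptors through which tumour neutrophils can hold back T cells. They are the inducible nitric oxide synthase Nos2, the amino acid oxidising enzymes Ido1 and Il4i1, the cytokines Tgfb1, Il10 and Osm, the fatty acid transporter Slc27a2 and the oxidised LDL receptor Olr1. The 8 genes were found by matching the Ensembl identifiers of the count table to these symbols in GENCODE M21, out of 55385 mouse genes in the table, and all 8 passed the filter on low counts. No measured value entered their choice as a set, although results of these data were known when the set was drawn up.

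Neutrophils that turn arginine into nitric oxide are a textbook example of myeloid suppression, since T cells need arginine from their surroundings to divide and nitric oxide blocks their signalling. Ido1 starts the conversion of tryptophan to kynurenine, which has a similar effect on T cells, and Il4i1 is a secreted oxidase of aromatic amino acids. Tgfb1 and Il10 encode cytokines that damp immune responses, Osm encodes a cytokine of the interleukin-6 family, and Slc27a2 and Olr1 have both been used to mark suppressive neutrophils in tumours.

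RNA of Tomato+ neutrophils sorted from grafted squamous cell carcinomas (SCC) was measured by bulk sequencing in 10 libraries. The hosts were CatchupIVM-red mice, a strain in which the neutrophil gene Ly6g drives the red reporter, and every group shares this host. Tumours grew either from parental Sox2low control SCC cells or from Sox2Hi SCC cells, and were either naive (untreated) or treated with anti-PDL1 and a CD40 agonist. Each graft had 3 naive and 2 treated libraries. The library names also carry C57 in every group, GFP for the control grafts and Sox2 for the others, with no explanation. The labels give no age or dose, and do not say whether replicates came from separate mice, so p-values measure the spread between these libraries, which may in part be technical. The design text asks whether Sox2 in tumour cells lets them restrain the neutrophils' response to interferons.

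Total gene counts ran from 13815734 to 22986193 per library. All 19 neutrophil markers of the list used here were detected in every library. Their summed level was 12429 to 20271 CPM (the read count normalised to the library total, scaled as described under processing) in control naive, 42059 to 44958.5 in control treated, 12047.5 to 17705 in Sox2Hi naive and 21340 to 21550 in Sox2Hi treated. Marker lists of macrophages, dendritic cells and keratinocytes were also above 0 in every library, the 12 macrophage markers with a summed level of 639 to 1528 CPM. Other lists also differed between naive and treated libraries. In control tumours the 10 T and NK cell markers summed to 41.9 to 66.7 CPM in naive and to 86.1 and 276 CPM in treated libraries, and the 7 fibroblast markers to 274 to 757 and to 102 and 87.8 CPM. In Sox2Hi tumours the T and NK cell sum was 29.2 to 99.0 CPM in naive and 146 and 107 CPM in treated libraries, and the fibroblast sum 480 to 667 and 317 and 98.8 CPM. None of these markers was at 0 in any library. The 6 mast cell markers summed to 34.4 to 223 CPM in control naive libraries and to 9.08 and 28.2 CPM after treatment, and the 5 erythroid genes to 576 to 1493 and to 319 and 52.5 CPM. In Sox2Hi tumours the erythroid sum went from 272 to 569 CPM to 24.05 and 61.9 CPM, while the mast cell sums overlapped. The 5 eosinophil markers there summed to 55.7 to 85.6 CPM in naive and to 19.3 and 27.2 CPM in treated libraries. For the 6 B and plasma cell markers the sums were 222 to 783 CPM and 184 and 24.2 CPM. In control tumours the naive and treated sums of both these lists overlapped. The part of all these cells in the results was not tested. The Y-linked Ddx3y had 4 to 8 reads in 4 libraries and 1007 to 6618 in the other 6, with both kinds in every group, so hosts of both sexes appear to be present. Reads lay over olfactory and vomeronasal receptor genes, which are taken as silent in these cells. Their rate per kb of exon, applied to every gene, gives a background estimate. For the control grafts it came to 5.41% ± 1.52 of all reads when naive (SD, n = 3) and 1.36% ± 0.15 when treated (SD, n = 2), and for the Sox2Hi grafts to 3.17% ± 0.011 when naive (SD, n = 3) and 3.78% ± 0.62 when treated (SD, n = 2). In bulk libraries, fewer cells of a type and less RNA per cell cannot be told apart.

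Per kb of exon, Ido1 (mean 32.2 CPM per kb over the 10 libraries, range 8.30 to 130), Osm (19.5, range 10.9 to 33.6), Olr1 (15.6, range 8.47 to 25.1) and Il10 (10.5, range 5.97 to 20.9) were the more abundant, with ranges that overlapped. Without Sox2Hi treated replicate 2 the mean of Ido1 was 21.4 CPM per kb and that of Osm 19.1. The order differed between groups. In Sox2Hi naive tumours the mean levels of Osm (16.4) and Olr1 (14.9) exceeded that of Ido1 (13.0), and in control treated tumours Osm (27.8) was close to Ido1 (26.9). Over all libraries Tgfb1 (1.61) and Nos2 (1.32) were lower, and Slc27a2 (0.36) and Il4i1 (0.265) lowest, but in control treated tumours Nos2 (3.82) exceeded Tgfb1 (1.12) and Il4i1 (0.49) exceeded Slc27a2 (0.32). Background reads matter for the low end of this order. They would account for under 3% of the reads of Ido1, Il10, Osm and Olr1, and for 16.3% of those of Tgfb1. For Nos2 the expected share was 22.1%, for Slc27a2 74.1% and for Il4i1 103.9% over all libraries, with 25.5% to 193% in single ones.

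**Figure D1:**
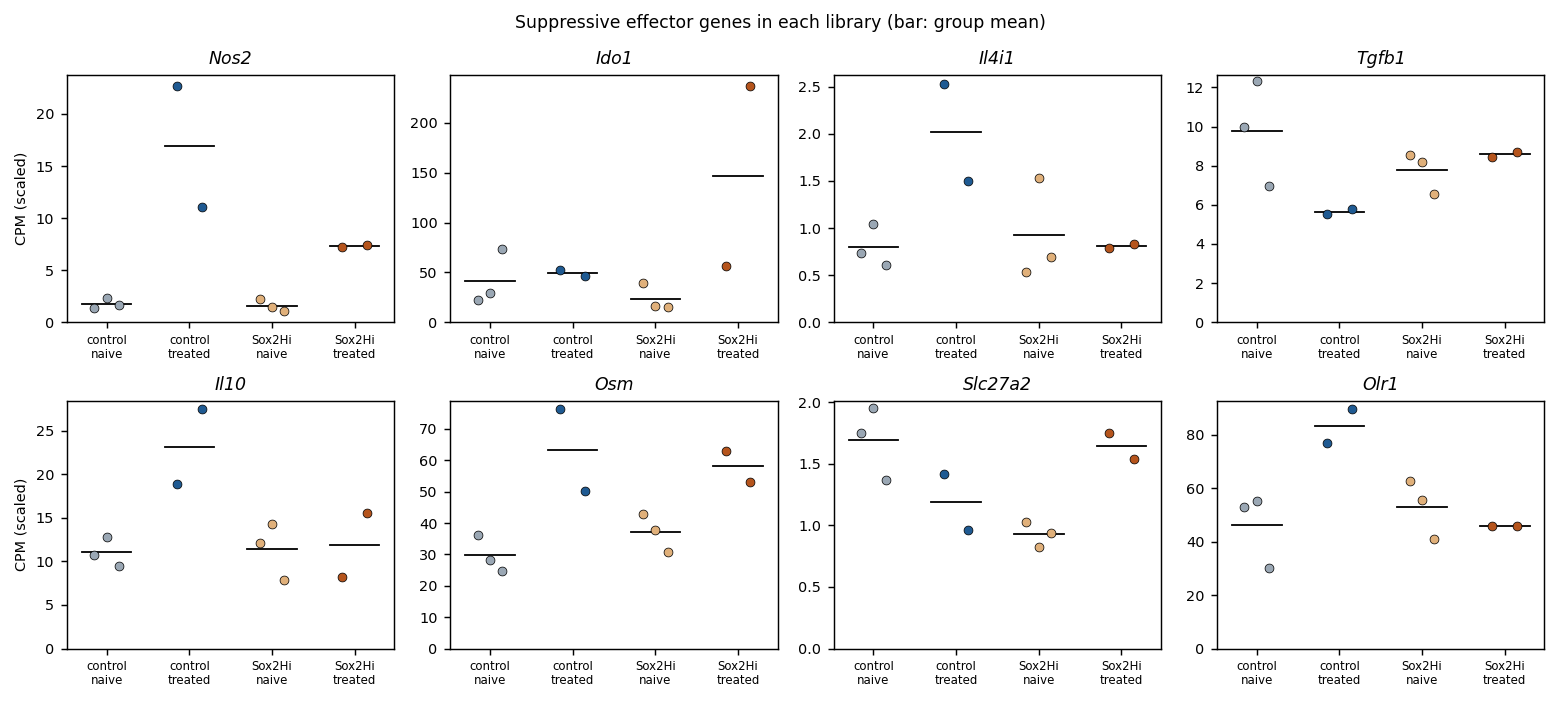
Level of each of the 8 genes in CPM (vertical axis, linear from 0, scaled by factors from expressed genes) in the 4 groups, with 1 point per library and a bar at the group mean. Both control treated libraries lie above all control naive libraries for Nos2, Il4i1, Il10, Osm and Olr1 and below them for Tgfb1, and for Ido1 the Sox2Hi treated libraries lie apart at 56.0 and 237 CPM.

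In control tumours treatment moved most of these genes, with 5 of 8 called higher and 1 lower (edgeR quasi-likelihood test, Benjamini-Hochberg adjusted p-value under 0.05), with a median log2 fold change of 0.96. Of all 29648 genes tested, 12.5% were called higher and 36.1% lower, with a median of -0.72. Among the 11270 genes that averaged 5 CPM or more without scaling, which leave out Nos2 (4.94 CPM), Slc27a2 and Il4i1, 28% were called higher and 27.4% lower, with a median of -0.05. The 5 genes called higher were Nos2, Il4i1, Il10, Osm and Olr1, and the gene called lower was Tgfb1.

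In Sox2Hi tumours 2 of 8 were called, Nos2 and Ido1, both higher, with a median over the 8 of 0.39. The shares of all genes were 3.36% higher and 1.66% lower with a median of 0.27, and those of genes of at least 5 CPM were 7.24% and 4.04% with a median of 0.03. A call in 1 graft and not in the other does not show that the responses differ. The interaction, the log2 response in Sox2Hi minus that in control tumours, tests this directly. It was called for Ido1 and Slc27a2, both positive, and for Olr1, negative, with a median over the 8 of -0.73. Of all genes 26.8% were called positive and 4.42% negative with a median of 0.85, and of genes of at least 5 CPM 15.4% and 10.8% with a median of -0.17.

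Without treatment no gene of the 8 was called between the grafts by edgeR, with a median log2 difference of -0.058. At an unadjusted p under 0.05 the count was 1, Slc27a2, while DESeq2 called 2 and limma-voom 1. All genes gave 0.911% higher and 4.89% lower in Sox2Hi, and genes of at least 5 CPM 2.12% and 6.76%. Among treated tumours 1 of 8 was called lower in Sox2Hi, Nos2, and none higher, with a median of -0.49. The shares of all genes were 9.69% higher and 3.29% lower, and of genes of at least 5 CPM 10.1% and 7.74%. The treated libraries of the grafts did not overlap for 7 of the 8, with Nos2, Il4i1, Il10 and Olr1 lower and Ido1, Tgfb1 and Slc27a2 higher in Sox2Hi. With 2 libraries against 2 such separation is common, as 48.3% of all genes tested lay higher and 16.3% lower without overlap, and 28.8% and 34.2% of genes of at least 5 CPM.

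The choice of scaling shifts these counts. Factors taken from all genes tested, in place of expressed genes, move the median log2 value of all genes by 0.43 in control tumours, -0.20 in Sox2Hi tumours, 0.29 between naive grafts, -0.34 between treated grafts and -0.63 for the interaction. Under them 5 of the 8 were called higher and none lower with treatment in control tumours (all genes 18.7% and 15.1%), and 1 higher in Sox2Hi tumours, Nos2 (1.79% and 1.82%). None was called between naive grafts (1.67% and 0.216%), and 4 were lower in Sox2Hi among treated tumours, Nos2, Il4i1, Il10 and Olr1 (4.14% higher and 9.62% lower). The interaction was then negative for 5, Nos2, Il4i1, Il10, Osm and Olr1, and called positive for none (11.2% positive and 16.3% negative).

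**Figure D2:**
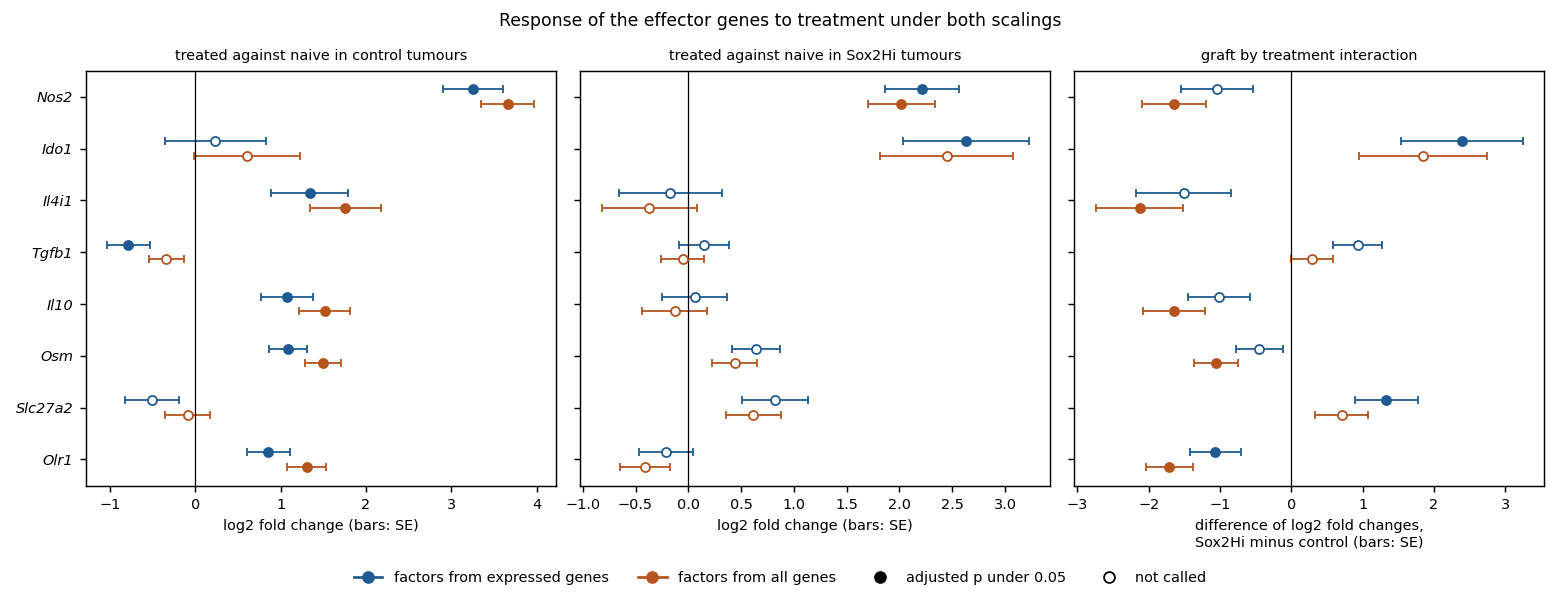
Log2 fold change of treated against naive in control tumours (left) and Sox2Hi tumours (middle), and their difference (right), for the 8 genes. Points are estimates, bars are 1 SE, filled points have an adjusted p-value under 0.05, and the colours are the scalings, with factors from expressed genes or from all genes. Nos2 is filled in both grafts under both scalings, and Ido1 lies near 0 in control tumours (0.23) and at 2.63 in Sox2Hi tumours.

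Nos2 (ENSMUSG00000020826, chromosome 11, 78920787 to 78960254, plus strand) encodes inducible nitric oxide synthase, which turns arginine into nitric oxide and citrulline. It had 24, 36 and 32 reads in the control naive libraries, where 26.4, 33.3 and 24.7 were expected from background. The control treated libraries had 305 and 184 reads against 9.38 and 9.72 expected. Naive Nos2 in control tumours was thus close to background, and treated Nos2 was far above it. In Sox2Hi tumours there were 45, 26 and 22 reads in the naive libraries, with 19.5, 17.2 and 17.9 expected, and 120 and 115 in the treated ones, with 22.8 and 20.1 expected. As levels, control Nos2 was at 1.35, 2.35 and 1.62 CPM when naive and 22.7 and 11.05 when treated, and Sox2Hi Nos2 at 2.201, 1.43 and 1.08 when naive and 7.25 and 7.37 when treated.

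In both grafts the treated libraries exceeded every naive library, and Nos2 was called higher in all 21 alternatives that tested it. It rose 9.52-fold in control tumours (log2 3.25, SE 0.35, edgeR adjusted p-value 8.94e-05) and 4.63-fold in Sox2Hi tumours (2.21, SE 0.35, edgeR adjusted p-value 0.0059). These folds are on reads that include the background, and with the background subtracted they were larger (log2 6.19 in control and 3.25 in Sox2Hi tumours, edgeR adjusted p-values 6.03e-04 and 0.0218), so their size depends on how the naive background is treated. No 31-base word of any Nos2 transcript occurs in a transcript of another gene, and the same was found for Ido1, Il10 and Osm. Among treated tumours Nos2 was lower in Sox2Hi (-1.20, SE 0.36, edgeR adjusted p-value 0.0485), just inside the threshold. Only 6 of 21 alternatives kept that call. With 1 library left out its value ran from -0.57 without control treated replicate 1 (adjusted p-value 0.292) to -1.64 without control treated replicate 2 (0.0595), and DESeq2 gave the lowest value of all alternatives, -1.67. It was also lost without control naive replicate 1 (0.0623) or 3 (0.0580), without Sox2Hi naive replicate 2 (0.0621) or 3 (0.0544), and without Sox2Hi treated replicate 1 (0.199) or 2 (0.141). The interaction was -1.04 (SE 0.50, edgeR adjusted p-value 0.124) and it was called without control treated replicate 2 (-1.49, 0.0466), with factors from all genes (-1.64, 0.0224) and by DESeq2 (-1.86, 0.00173).

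Ratios of reads per kb within a library do not depend on the scaling. For the ratio of Ido1 to Nos2 the control treated libraries had the lowest ratios, 5.58 and 10.1, against 40.1, 30.1 and 110 in control naive, and the Sox2Hi treated values of 18.7 and 77.9 spanned the Sox2Hi naive values of 43.2, 28.2 and 33.8. No test was run on this ratio, and the background holds most of the naive Nos2 reads in it.

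Of the other genes of arginine use, 31 of 32 were tested, from transporters through polyamine synthesis to tetrahydrobiopterin, the cofactor of nitric oxide synthase. With treatment 10 (32.3%) were called higher and 10 (32.3%) lower in control tumours (median 0.05), and 1 higher and 4 lower in Sox2Hi tumours (median 0.02). This list and those below are to be read against the shares of all genes, 12.5% higher and 36.1% lower in control tumours, and of genes of at least 5 CPM, 28% and 27.4%. In Sox2Hi tumours these shares were 3.36% and 1.66%, and 7.24% and 4.04%. The balance depends on the scaling, since factors from all genes gave 13 higher and 2 lower in control tumours. Ass1, which rebuilds arginine from the citrulline that nitric oxide synthase releases, rose in control tumours from 8.74 ± 1.41 CPM (SD, n = 3) to 27.8 ± 1.48 (SD, n = 2; log2 1.67, SE 0.37, edgeR adjusted p-value 0.00444). In Sox2Hi tumours Ass1 rose from 10.4 ± 0.49 CPM (SD, n = 3) to 29.7 ± 23 (SD, n = 2; 1.51, edgeR adjusted p-value 0.0356), with the treated libraries at 13.2 and 46.2 CPM, and factors from all genes did not call it (0.0785). Gchfr, whose protein holds back the first enzyme of tetrahydrobiopterin synthesis, fell by 2.70 on the log2 scale in control tumours (edgeR adjusted p-value 4.98e-05) and by 1.81 in Sox2Hi tumours (0.00226), calls that held under both scalings. Ddah1, which breaks down a natural inhibitor of nitric oxide synthases, fell by 1.97 (edgeR adjusted p-value 0.0141) and 2.15 (0.0435), but factors from all genes did not call either (0.0526 and 0.0513).

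Gch1 and Pts, the first enzymes of tetrahydrobiopterin synthesis, responded differently in the grafts. In control tumours Gch1 was at 15.03 ± 3.51 CPM when naive (SD, n = 3) and 41.3 ± 4.52 when treated (SD, n = 2), and in Sox2Hi tumours at 24.3 ± 2.29 when naive (SD, n = 3) and 26.7 ± 10.6 when treated (SD, n = 2). It rose in control tumours (1.46, SE 0.25, edgeR adjusted p-value 0.0013), and its interaction was called (-1.33, SE 0.36, edgeR adjusted p-value 0.0193). Pts was at 211 ± 16.0 CPM in control treated and 100.4 ± 23.5 in Sox2Hi treated (SD, n = 2 each), a difference of -1.07 (SE 0.26, edgeR adjusted p-value 0.0270). Sat1, which marks polyamines for breakdown or export, was also lower in Sox2Hi among treated tumours, at 3162 ± 416 against 5830 ± 21.7 CPM (SD, n = 2 each; -0.88, edgeR adjusted p-value 0.0221). Among treated grafts 3 genes of this list were called lower in Sox2Hi and none higher, and with factors from all genes 10 were lower, against 3.29% and 9.62% of all genes. Between naive grafts none was called. A further fit took only the naive libraries, with the title number as a block. It is called the paired fit below, although the labels state no pairing. This fit called 20 genes of the 6 lists in place of 3, with 4.50% of all genes higher and 15.7% lower in Sox2Hi. In that fit 3 genes of arginine use were higher and none lower.

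Ido1 (ENSMUSG00000031551, chromosome 8, 24584136 to 24597009, minus strand) encodes the interferon-inducible enzyme that opens the tryptophan ring. It stood at 22.4, 29.2 and 73.7 CPM in control naive and 52.4 and 45.9 CPM in control treated. In Sox2Hi tumours it was at 39.4, 16.6 and 15.1 CPM in naive and 56.0 and 237 CPM in treated libraries. The control groups overlapped, the Sox2Hi groups did not, and Sox2Hi treated replicate 2 stood far above the other 9 libraries. Ido1 was called higher with treatment in Sox2Hi tumours (6.18-fold, log2 2.63, SE 0.60, edgeR adjusted p-value 0.0294) and not in control tumours (0.23, SE 0.59, edgeR adjusted p-value 0.748). The interaction was 2.39 (SE 0.85, edgeR adjusted p-value 0.04995), at the threshold.

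The size of the Ido1 response rests on 1 library. Without Sox2Hi treated replicate 2 the rise in Sox2Hi tumours was 1.23 (adjusted p-value 0.393) and the interaction 1.10 (0.287). Other alternatives ended the call of the rise while its value stayed at 2.23 to 2.66. These were leaving out Sox2Hi naive replicate 2 (adjusted p-value 0.0649) or 3 (0.110), factors from all genes (0.0557), and the replicate block by title number (0.0627) or description number (0.0729). Only 6 of 21 alternatives kept the interaction. Its call was also lost, with values of 1.91 to 2.61, without control naive replicate 2 (0.0602) or 3 (0.0736), without control treated replicate 1 (0.0984) or 2 (0.134), and without Sox2Hi naive replicate 2 (0.0560) or 3 (0.0634). The summed level of 10 dendritic cell markers was also highest in Sox2Hi treated replicate 2, at 2012 CPM, against 831 CPM in Sox2Hi treated replicate 1, 1614 and 1784 CPM in control treated, 734 to 944 CPM in control naive and 708 to 1105 CPM in Sox2Hi naive. The macrophage sum was 1502 CPM there, of which Apoe made up 923 CPM, against 740 CPM in Sox2Hi treated replicate 1, but it was highest in Sox2Hi naive replicate 1, at 1528 CPM, where Ido1 was at 39.4 CPM. Most of the dendritic cell sum was H2-Aa, a class II gene that other cells also express, at 1754 CPM in that library. Cd83 of the same list was highest in that library too, at 226 CPM, against 201 CPM in Sox2Hi naive replicate 2. Xcr1, Clec9a, Flt3 and Zbtb46 were at 9.9995, 1.99, 2.69 and 3.46 CPM there. Each was higher in another library, up to 15.4 CPM for Xcr1 (control treated replicate 2) and 3.35 CPM for Clec9a (control treated replicate 1). For Flt3 and Zbtb46 the maxima were 4.17 and 5.28 CPM, both in control naive replicate 2. Cd209a, Ccr7, Siglech and Fscn1 were higher in other libraries as well. None of the 10 was at 0. Ido1 in control naive replicate 3, the highest of its group, went with the highest summed level of 8 keratinocyte markers, 2808 CPM against 723 to 1793 CPM in the other libraries. The part of these cells in the Ido1 values was not tested.

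Il4i1 (ENSMUSG00000074141, chromosome 7, 44816387 to 44840809, plus strand) was at the limit of measurement. It had 13, 16 and 12 reads in the control naive libraries, and 34 and 25 in the control treated ones. There were 11, 28 and 14 reads in Sox2Hi naive and 13 in each Sox2Hi treated library. In control treated libraries 8.67 and 8.99 reads were expected from background, while in the Sox2Hi treated ones 21.1 and 18.6 were, more than were counted. Its annotated transcripts share 80.5% of their 31-base words with Nup62 on the same strand and with Tbc1d17 and Atf5 on the other, so its reads cannot be told apart from theirs over most of its length. Il4i1 was called higher with treatment in control tumours (log2 1.34, SE 0.45, edgeR adjusted p-value 0.0294). That call was lost without control naive replicate 1 (0.0840) or 3 (0.0994), without control treated replicate 1 (0.211), with the replicate block by title number (0.0565) and on library totals alone (log2 0.70, 0.169). The value in Sox2Hi tumours was -0.17 (SE 0.49, edgeR adjusted p-value 0.85).

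**Figure D3:**
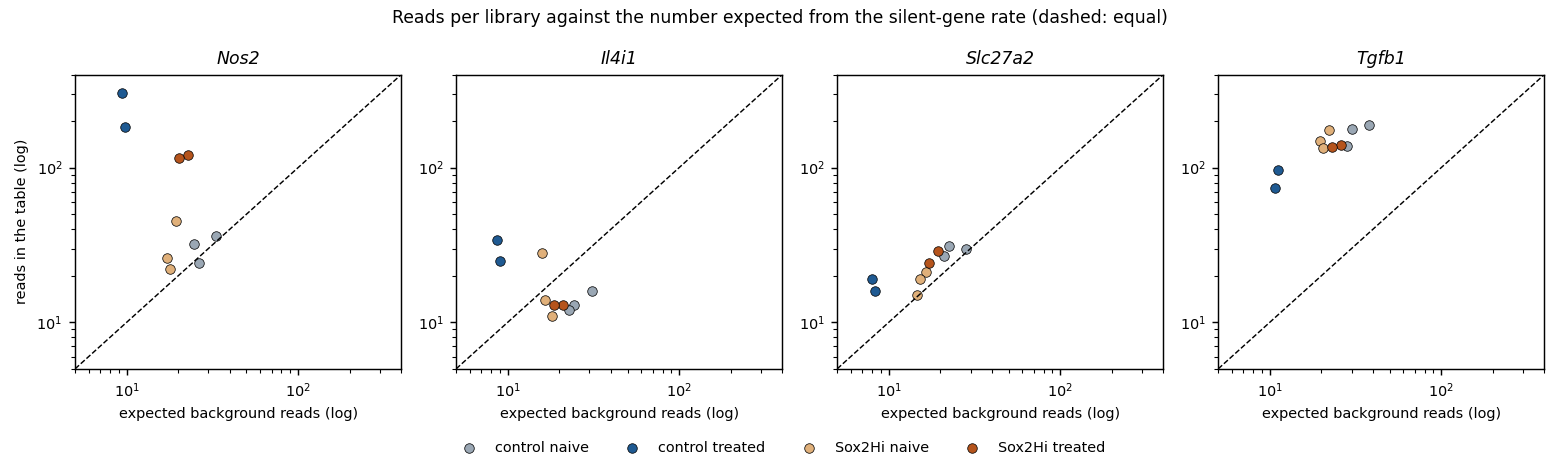
Reads counted in each library (vertical axis, log scale) against the reads expected from the silent-gene rate (horizontal axis, log scale) for Nos2, Il4i1, Slc27a2 and Tgfb1, with 1 point per library coloured by group and a dashed line where both are equal. Control naive Nos2 lies near the line at 24 to 36 reads and control treated Nos2 far above it at 184 and 305, while Il4i1 lies below the line in the control naive libraries (12 to 16 reads) and above it in the control treated ones (34 and 25), and Slc27a2 lies above it in every library (15 to 31 reads).

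The other 23 genes of tryptophan use were all tested. With treatment 2 (8.70%) were called higher and 8 (34.8%) lower in control tumours (median -0.63), the latter near the share of all genes, and 1 lower and none higher in Sox2Hi tumours (median 0.38). Factors from all genes gave 4 higher and 3 lower in control tumours. Tiparp, a target of the aryl hydrocarbon receptor that kynurenine can activate, rose in control tumours from 825 ± 91.7 CPM (SD, n = 3) to 1396 ± 78.9 (SD, n = 2; 0.76, SE 0.17, edgeR adjusted p-value 0.00531). Wars, the tryptophan tRNA ligase induced by interferon, rose from 7.42 ± 1.46 to 12.4 ± 2.62 CPM in the same groups (0.74, SE 0.23, edgeR adjusted p-value 0.0214). Maoa, which oxidises serotonin made from tryptophan, fell by 1.75 in control tumours (edgeR adjusted p-value 4.48e-04) and by 1.02 in Sox2Hi tumours (0.0303). It was at 54.6 ± 15.8 and 16.3 ± 0.064 CPM in control naive and treated and at 57.7 ± 3.93 and 28.3 ± 4.62 CPM in Sox2Hi naive and treated (SD, n = 3 naive and 2 treated). Kyat1, a kynurenine aminotransferase, fell by 0.92 in control tumours (edgeR adjusted p-value 0.0328), a call lost with factors from all genes (0.238). No gene of the list was called between naive grafts (4 lower in Sox2Hi in the paired fit), and 2 were called higher in Sox2Hi among treated grafts (1 higher and 1 lower with factors from all genes). These are 8.70% of the list against 9.69% of all genes. They were Afmid and Cyp1b1, named after their values were seen, with 44.3% and 57.01% of their reads expected from background.

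Tgfb1 (ENSMUSG00000002603, chromosome 7, 25687002 to 25705077, plus strand) encodes transforming growth factor beta 1. It was at 9.98, 12.3 and 6.96 CPM in control naive and 5.51 and 5.76 CPM in control treated. The Sox2Hi libraries had 8.56, 8.18 and 6.54 CPM when naive and 8.46 and 8.72 CPM when treated. The control treated libraries were the lowest of all 10, and the Sox2Hi groups overlapped. The fibroblast markers given above were also lower in control treated than in control naive libraries. In Sox2Hi treated replicate 2 they summed to 98.8 CPM, between the 102 and 87.8 CPM of the control treated libraries. Their part in the Tgfb1 values was not tested. Tgfb1 fell by 0.79 on the log2 scale in control tumours (SE 0.25, edgeR adjusted p-value 0.0221), and the value in Sox2Hi tumours was 0.15 (SE 0.24, edgeR adjusted p-value 0.729). The fall was smaller and not called with factors from all genes (-0.34, edgeR adjusted p-value 0.216) or by DESeq2 (-0.16, adjusted p-value 0.672). It was also lost without control naive replicate 2 (-0.60, adjusted p-value 0.0552) and without control treated replicate 1 (0.0744) or 2 (0.0904). The interaction was 0.93 (SE 0.34, edgeR adjusted p-value 0.0545), and it was called without control naive replicate 3 (1.33, adjusted p-value 0.00561), Sox2Hi naive replicate 1 (1.20, 0.0318) or Sox2Hi naive replicate 2 (1.16, 0.0371), on library totals alone (1.29, 0.0106), by limma-voom (0.92, 0.0379) and with the replicate block by title number (0.91, 0.0263).

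RefSeq promoters were at hand for 4 of the 8 genes. Those of Tgfb1 and Olr1 are shown because these genes went in opposite directions with treatment in control tumours, and because they differ in base composition. Each is the 250 bases before the annotated start in GRCm38.p6, 5′ to 3′ along the gene's own strand. Tgfb1 lies at chr7:25686752-25687001 (plus strand) and Olr1 at chr6:129507166-129507415 (minus strand). Capitals mark GC boxes (GGGCGG on either strand) in Tgfb1 and the AP-1 motif (TGANTCA) in Olr1.
Tgfb1: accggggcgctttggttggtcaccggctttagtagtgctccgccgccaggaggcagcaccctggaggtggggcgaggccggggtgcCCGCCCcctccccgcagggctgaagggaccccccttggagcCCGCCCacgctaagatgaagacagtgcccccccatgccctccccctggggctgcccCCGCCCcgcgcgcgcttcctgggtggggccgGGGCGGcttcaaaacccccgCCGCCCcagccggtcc
Olr1: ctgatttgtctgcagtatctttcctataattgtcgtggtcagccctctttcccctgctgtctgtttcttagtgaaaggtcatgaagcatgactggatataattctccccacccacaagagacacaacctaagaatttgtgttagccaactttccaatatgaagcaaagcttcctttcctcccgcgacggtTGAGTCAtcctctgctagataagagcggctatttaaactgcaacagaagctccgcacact
The Tgfb1 window is 75.2% G and C and holds 5 GC boxes, 164, 123, 67, 36 and 16 bases before the start. At least 1 such box stands in 32.7% of 32851 promoters searched over the same length. It also holds 1 NF-kB consensus match 140 bases before the start, which 7.25% of promoters have. The Olr1 window is 45.2% G and C, holds no GC box and has its AP-1 match 60 bases before the start, as 6.75% of promoters do. Neither window held a TATAAA, TTCNNNGAA, GAAANNGAA, TTGCNNAA or ACGTG match on either strand. Matches describe the letters only.

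In the TGF-beta list all 31 genes were tested, among them receptors, latency proteins, Smads and target genes. With treatment 8 (25.8%) were called higher and 10 (32.3%) lower in control tumours (median -0.08), and 1 lower and none higher in Sox2Hi tumours (median -0.02). Factors from all genes turned the balance in control tumours to 11 higher and 2 lower. Tgif1, a repressor of Smad-driven transcription, was at 405 ± 62.9 CPM (SD, n = 3) and 1090 ± 48.0 (SD, n = 2) in naive and treated control tumours, and at 428 ± 70.8 (SD, n = 3) and 598 ± 12.9 (SD, n = 2) in naive and treated Sox2Hi tumours. It rose in control tumours (1.43, SE 0.18, edgeR adjusted p-value 2.43e-04), and its interaction was called (-0.95, SE 0.26, edgeR adjusted p-value 0.0205). Nrros, which anchors latent TGF-beta on myeloid cells, also rose in control tumours (1.40, SE 0.32, edgeR adjusted p-value 0.00533). Pmepa1, a target and feedback inhibitor of the pathway, fell by 1.09 in control tumours (edgeR adjusted p-value 0.0060) and by 1.02 in Sox2Hi tumours (0.0394), the first of which was not called with factors from all genes (0.0807). Ltbp1, a latency-binding protein, fell by 1.30 in control tumours (edgeR adjusted p-value 0.00481, and 0.0602 with factors from all genes). No gene of the list was called between naive grafts (2 higher in Sox2Hi in the paired fit), while among treated grafts 2 were called higher and 2 lower in Sox2Hi (none and 5 with factors from all genes), against 9.69% and 3.29% of all genes. The higher ones, named after their values were seen, were Tgfb2 and Ltbp4, with 46.8% and 67.3% of their reads expected from background. The lower ones were Tgif1 (-0.87, edgeR adjusted p-value 0.0255) and Tgfbr3. Tgfbr3, a co-receptor with 21.7% of its reads expected from background, was lower in Sox2Hi (-1.04, SE 0.22, edgeR adjusted p-value 0.0203), at 7.13 ± 1.02 against 14.7 ± 0.53 CPM (SD, n = 2 each).

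Il10 (ENSMUSG00000016529, chromosome 1, 131019845 to 131024974, plus strand) encodes interleukin-10. Its level was 10.8, 12.8 and 9.49 CPM in control naive and 18.8 and 27.4 CPM in control treated. In Sox2Hi tumours it was 12.1, 14.3 and 7.82 CPM when naive and 8.22 and 15.6 CPM when treated. Both control treated libraries were above all other 8, and the Sox2Hi groups overlapped. The T and NK cell markers given above summed to more in both control treated libraries than in the control naive ones. Control treated replicate 1, at 86.1 CPM, was below Sox2Hi naive replicate 2 (99.0) and Sox2Hi treated replicates 1 (146) and 2 (107). The part of these cells in the Il10 values was not tested. Il10 rose 2.10-fold in control tumours (log2 1.07, SE 0.30, edgeR adjusted p-value 0.0137), and the value in Sox2Hi tumours was 0.06 (SE 0.31, edgeR adjusted p-value 0.917). The rise was not called without control naive replicate 3 (0.84, adjusted p-value 0.0594) or control treated replicate 2 (0.79, 0.123), with the background subtracted (0.92, 0.0551) or on library totals alone (0.44, 0.169). Its interaction was -1.01 (SE 0.44, edgeR adjusted p-value 0.0898), and it was called without Sox2Hi treated replicate 2 (-1.46, 0.0432), with factors from all genes (-1.64, 0.0191), by DESeq2 (-1.85, 3.37e-04) and with the replicate block by title number (-1.003, 0.0260).

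Osm (ENSMUSG00000058755, chromosome 11, 4236420 to 4241026, plus strand) encodes oncostatin M. It was at 36.2, 28.3 and 24.8 CPM in control naive and 76.4 and 50.1 CPM in control treated. Naive Sox2Hi libraries had 43.0, 37.9 and 30.9 CPM and treated ones 62.8 and 53.2 CPM. Treated libraries exceeded naive ones in each graft without overlap, and the treated grafts overlapped each other. Osm rose 2.12-fold in control tumours (log2 1.09, SE 0.23, edgeR adjusted p-value 0.0034), a call kept in 21 of 22 alternatives, the exception being library totals alone (0.45, adjusted p-value 0.0935). In Sox2Hi tumours the value was 0.64 (SE 0.23, edgeR adjusted p-value 0.118), called only with the replicate block by description number (0.68, 0.0487), and the interaction was -0.45 (SE 0.32, edgeR adjusted p-value 0.286). It was called with factors from all genes (-1.06, edgeR adjusted p-value 0.0263) and by DESeq2 (-1.27, adjusted p-value 8.44e-04).

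Among 22 genes that receive, relay or accompany the signals of Il10 and Osm, 13 (59.1%) were called higher and 3 (13.6%) lower with treatment in control tumours (median 0.79; 15 and none with factors from all genes), and 1 higher and none lower in Sox2Hi tumours (median 0.43). Ebi3, a subunit shared by interleukins 27 and 35, rose in both grafts. It went from 24.4 ± 6.62 CPM (SD, n = 3) to 152 ± 49.4 (SD, n = 2) in control tumours (2.64, SE 0.29, edgeR adjusted p-value 1.0e-04) and from 26.2 ± 7.90 (SD, n = 3) to 89.0 ± 14.8 (SD, n = 2) in Sox2Hi tumours (1.76, SE 0.29, edgeR adjusted p-value 0.00673). Il1rn, the secreted interleukin-1 receptor antagonist, was at 1711 ± 327 CPM (SD, n = 3) and 3968 ± 319 (SD, n = 2) in naive and treated control tumours, and at 1943 ± 442 (SD, n = 3) and 1968 ± 590 (SD, n = 2) in naive and treated Sox2Hi tumours. It rose in control tumours (1.21, SE 0.24, edgeR adjusted p-value 0.00276), and its interaction was called (-1.20, SE 0.35, edgeR adjusted p-value 0.0250). Between treated grafts 1 gene of this list was called higher and 2 lower in Sox2Hi (none and 6 with factors from all genes). These are 4.55% and 9.09% of the list, against 9.69% and 3.29% of all genes (4.14% and 9.62% with factors from all genes). The higher one was Il6st (0.70, edgeR adjusted p-value 0.0400), and the lower ones were Il1rn (-1.01, edgeR adjusted p-value 0.0355) and Jak2, a kinase of cytokine receptors (-0.74, SE 0.22, edgeR adjusted p-value 0.0464). Il6st, the receptor chain through which Osm signals, with 21.6% of its reads expected from background, fell by 0.77 in control tumours (edgeR adjusted p-value 0.00645), and Maf, a transcription factor that drives Il10 in several cell types, fell by 0.63 (0.0342), but neither was called with factors from all genes (0.167 and 0.520). Maf was also lower in Sox2Hi than in control tumours when both were naive (-0.80, SE 0.19, edgeR adjusted p-value 0.0412), again not called with factors from all genes (0.169). In the paired fit of the naive libraries Maf was also lower (-0.79, edgeR adjusted p-value 0.00242), and 2 other genes of the list were higher.

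Slc27a2 (ENSMUSG00000027359, chromosome 2, 126552407 to 126588243, plus strand) encodes the fatty acid transport protein FATP2. It had 31, 30 and 27 reads in naive and 19 and 16 in treated control tumours, and 21, 15 and 19 in naive and 29 and 24 in treated Sox2Hi tumours. Background would supply 81.7%, 46.4%, 84.4% and 68.9% of the reads of these groups, in the same order. With the background subtracted, Slc27a2 no longer passed the filter on low counts. The part of the background in its changes was thus not tested. Slc27a2 also shares 10.3% of its 31-base words with Gm26697 on the opposite strand. Its interaction was called positive (1.33, SE 0.44, edgeR adjusted p-value 0.0396), with -0.51 in control tumours (SE 0.32, edgeR adjusted p-value 0.184) and 0.82 in Sox2Hi tumours (SE 0.31, edgeR adjusted p-value 0.139). Only 9 of 19 alternatives kept the interaction. It was lost with factors from all genes (0.71, edgeR adjusted p-value 0.165) and by DESeq2 (0.50, adjusted p-value 0.554), and without control naive replicate 1 (0.0521) or 2 (0.0560), control treated replicate 2 (0.132), or Sox2Hi treated replicate 1 (0.127) or 2 (0.0554). Between naive grafts it was -0.85 in Sox2Hi against control (SE 0.28, edgeR adjusted p-value 0.0749), with no overlap of the libraries.

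Olr1 (ENSMUSG00000030162, chromosome 6, 129485244 to 129507165, minus strand) encodes LOX-1, a scavenger receptor for oxidised lipoproteins. It was at 53.0, 55.3 and 30.3 CPM in control naive and 77.0 and 89.8 CPM in control treated. The Sox2Hi naive libraries had 62.9, 55.8 and 40.9 CPM, and both treated ones were close together at 45.8 and 46.0 CPM. Control treated libraries were the highest of all 10, and in Sox2Hi tumours the treated values fell within the naive range. Olr1 rose 1.81-fold in control tumours (log2 0.85, SE 0.25, edgeR adjusted p-value 0.0161), the value in Sox2Hi tumours was -0.21 (SE 0.25, edgeR adjusted p-value 0.627), and the interaction was called negative (-1.07, SE 0.36, edgeR adjusted p-value 0.0409). With factors from all genes the interaction was -1.71 (edgeR adjusted p-value 0.00602).

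The rise of Olr1 in control tumours was not called without control naive replicate 3 (0.48, adjusted p-value 0.0652) or control treated replicate 2 (0.76, 0.0932), with the background subtracted (0.68, 0.0810) or on library totals alone (0.22, 0.412). The interaction was kept in 10 of 21 alternatives. It was not called without control naive replicate 1 (0.0590) or 3 (-0.63, 0.0921), control treated replicate 1 (0.0592) or 2 (0.109), Sox2Hi naive replicate 1 (0.141) or 2 (0.111), or Sox2Hi treated replicate 1 (0.113) or 2 (0.110). Among treated tumours Olr1 was at -0.86 in Sox2Hi against control (SE 0.28, edgeR adjusted p-value 0.0577). That difference was called with factors from all genes (-1.21, edgeR adjusted p-value 0.0142) and by DESeq2 (-1.35, adjusted p-value 9.05e-06). The replicate block by title number called it too (-0.86, edgeR adjusted p-value 0.0137), as did leaving out control naive replicate 2 (-0.85, 0.0494) or 3 (-0.75, 0.0312).

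All 26 genes of lipid uptake and storage were tested. With treatment 9 (34.6%) were called higher and 4 (15.4%) lower in control tumours (median 0.23; 12 and 2 with factors from all genes), and 3 higher and none lower in Sox2Hi tumours (median 0.46). Plin2, which coats lipid droplets, was at 292 ± 45.0 CPM (SD, n = 3) and 1372 ± 269 (SD, n = 2) in naive and treated control tumours, and at 356 ± 43.3 (SD, n = 3) and 743 ± 225 (SD, n = 2) in naive and treated Sox2Hi tumours. It rose in both grafts (2.23 and 1.06, SE 0.22 each, edgeR adjusted p-values 5.3e-05 and 0.0185), by more in control tumours (interaction -1.17, SE 0.31, edgeR adjusted p-value 0.0184). Msr1, another scavenger receptor of modified lipoproteins, rose from 47.3 ± 13.6 to 198 ± 35.9 CPM in control tumours (2.06, SE 0.31, edgeR adjusted p-value 7.0e-04) and from 43.9 ± 9.43 to 109 ± 57.8 CPM in Sox2Hi tumours (1.32, SE 0.31, edgeR adjusted p-value 0.0341), with SDs over 3 naive and 2 treated libraries. The second of these was not called with factors from all genes (0.0773). Slc27a1, a relative of Slc27a2 with 13.3% of its reads expected from background, fell by 0.87 in control tumours (edgeR adjusted p-value 0.00312), and Scarb1, the HDL receptor with 26.0% expected from background, by 0.57 (0.0336), neither of which was called with factors from all genes (0.104 and 0.575). Between treated grafts 2 genes of this list were called higher and 2 lower in Sox2Hi (none and 9 with factors from all genes), against 9.69% and 3.29% of all genes. The higher ones were Slc27a1 (0.72, edgeR adjusted p-value 0.0358) and Vldlr, a lipoprotein receptor named after its values were seen, with 63.7% of its reads expected from background. The lower ones were Plin2 (-0.88, edgeR adjusted p-value 0.0371) and Cd68, a scavenger receptor of lysosomes that macrophages share (-1.03, SE 0.30, edgeR adjusted p-value 0.0439). Between naive grafts only Acsl5, which activates fatty acids for use, was called, higher in Sox2Hi at 132 ± 14.2 against 91.1 ± 7.31 CPM (SD, n = 3 each; 0.53, edgeR adjusted p-value 0.0471). The paired fit called 2 genes of the list higher, Acsl5 among them (0.51, edgeR adjusted p-value 0.0128), and 3 lower.

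Transcription factors and receptors known to regulate such effectors formed the last list, of which all 27 were tested. With treatment 19 (70.4%) were called higher and 2 (7.41%) lower in control tumours (median 0.83; 24 and none with factors from all genes), and 3 (11.1%) higher and none lower in Sox2Hi tumours (median 0.44). Irf1, an interferon-induced activator of Nos2 and Ido1, rose from 66 ± 10 CPM (SD, n = 3) to 214 ± 93.5 (SD, n = 2) in control tumours (1.69, SE 0.25, edgeR adjusted p-value 6.51e-04). In Sox2Hi tumours it rose from 62.7 ± 12.6 CPM (SD, n = 3) to 169 ± 9.42 (SD, n = 2; 1.43, SE 0.25, edgeR adjusted p-value 0.0100). Ddit3, a transcription factor of the stress response, was at 65.5 ± 8.53 CPM (SD, n = 3) and 292 ± 5.0 (SD, n = 2) in naive and treated control tumours, and at 66.4 ± 10.5 (SD, n = 3) and 129 ± 16.4 (SD, n = 2) in naive and treated Sox2Hi tumours. It rose in control tumours (2.16, SE 0.18, edgeR adjusted p-value 2.35e-05) and in Sox2Hi tumours (0.96, SE 0.18, edgeR adjusted p-value 0.0119), and its interaction was called (-1.20, SE 0.25, edgeR adjusted p-value 0.00819). Il13ra1, a receptor chain for interleukins 4 and 13, was lower in Sox2Hi among treated tumours at 316 ± 12.7 against 580 ± 77.7 CPM (SD, n = 2 each; -0.87, SE 0.20, edgeR adjusted p-value 0.0235). Epas1, a hypoxia-inducible factor with 24.5% of its reads expected from background, fell by 1.04 in control tumours (edgeR adjusted p-value 0.0186, and 0.170 with factors from all genes). Xbp1, of the unfolded protein response, was the gene of this list called between naive grafts, higher in Sox2Hi (0.60, SE 0.16, edgeR adjusted p-value 0.0484). It was so too in the paired fit (0.58, edgeR adjusted p-value 0.00671), which called 3 genes of the list higher and none lower.

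**Figure D4:**
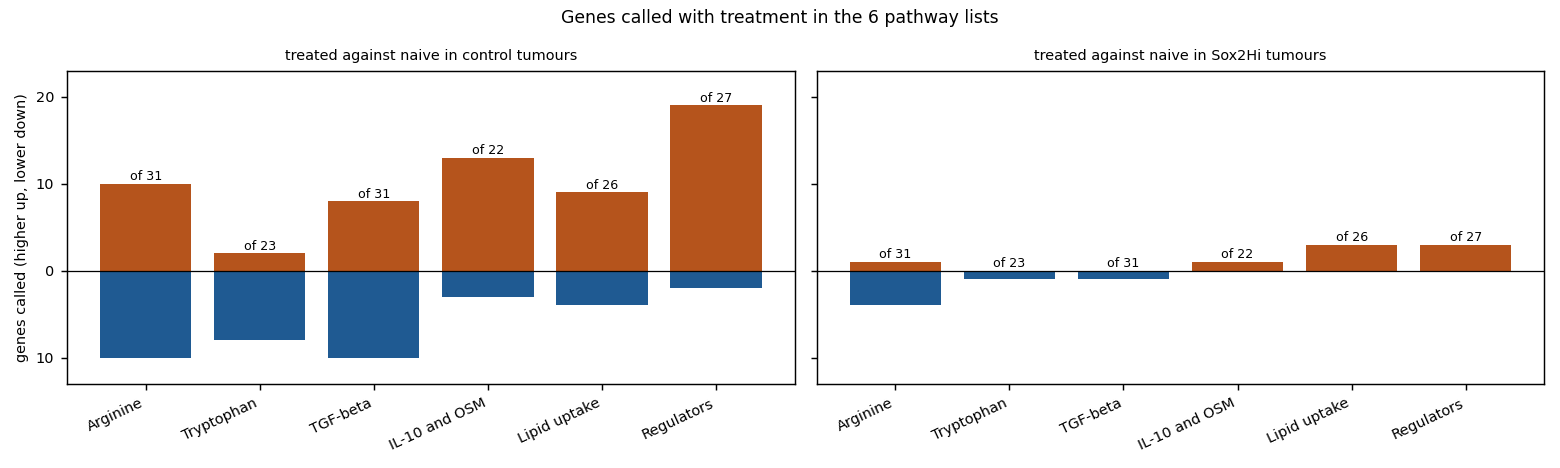
Number of genes called higher (bars upward) and lower (bars downward) with treatment in each of the 6 lists, in control tumours (left) and Sox2Hi tumours (right). The number of genes tested stands above each bar, and the regulators have the most genes called higher in control tumours, 19 of 27, while in Sox2Hi tumours no list has more than 3.

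Of 7074 named genes that averaged 10 CPM or more, those whose levels followed each effector most closely over the 10 libraries were found by Pearson correlation of log2(CPM + 1). For Olr1 they were Plek (0.967) and Gapt (0.963). Osm was closest to Rufy4 (0.963) and Ptpn6 (0.963), and Il10 to Tmed5 (0.961) and Dgkd (0.958). Ido1 had no such near match, with Wfdc18 (0.784) and Ubr3 (0.765) as its closest. All these values are descriptions over libraries that share groups, depth and scaling.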

How the data were processed

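Per the labels' protocols, sorted tumour neutrophils were the source of RNA, taken with a microprep kit, and a low-input library kit was used. The authors deposited a table of estimated counts per gene, 1 column per library, as whole numbers. The submitters' processing notes name kallisto 0.44.0 and the mm10 build, with no role given, and the annotation and strand setting are not given in the sources used here. Symbols, coordinates and exon lengths came from GENCODE M21 (GRCm38), which matched 55144 of 55385 identifiers. The 96 rows of spike-ins and transgenes were left out (0.00277% of a library's counts or less).

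All 10 libraries entered 1 edgeR 4.0.16 quasi-likelihood fit in R 4.3.3, with 4 groups as terms and genes kept by filterByExpr. TMM factors came from genes with an unscaled mean of at least 5 CPM, and CPM values use them. Benjamini-Hochberg adjustment ran over all 29648 genes, and a gene was called at an adjusted p-value under 0.05. Standard errors are the log2 fold change over the square root of F. The expected background is the median count per kb over 1972 olfactory and vomeronasal receptor genes times exon length. The code was tested on simulated counts. Alternatives were all-gene TMM factors, RLE factors, library totals, DESeq2 1.42.0, limma-voom (limma 3.58.1) with quality weights, other filters, background subtraction, a Ddx3y covariate, replicate blocks, the compared groups alone and each library left out.

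The members and lists were chosen with earlier results of these data known. From the set 2 genes, and 1 gene of the lists, are not reported here and enter no count of members or listed genes. Besides the members, genes named from each list are, per comparison, up to 2 rises and 2 falls among genes called, with a scaled mean of at least 5 CPM and, outside the interaction, no overlap of libraries. Replicates differed by more than sampling noise (chi-square per degree of freedom at least 12.5). The naive libraries of both grafts with the same title number deviated together (correlations 0.273, 0.324 and 0.474). These numbers were used to pair them, although the labels state no pairing and naive libraries with different numbers were not compared. Other same-numbered libraries gave -0.28 to 0.247.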

Additional observations from a re-analysis of the deposited data

Results flagged for a closer look

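The response to treatment differed between the grafts, by the interaction term of the edgeR quasi-likelihood fit (Benjamini-Hochberg adjusted p-value under 0.05), for 3 of the 8 effector genes. That share is near the background, since 26.8% of all genes were called positive and 4.42% negative, and says nothing particular about the 8. The interaction, the log2 response in Sox2Hi minus that in control tumours, was 2.39 for Ido1, 1.33 for Slc27a2 and -1.07 for Olr1. Ido1 rests on Sox2Hi treated replicate 2, without which it was 1.10 (adjusted p-value 0.287). With factors from all genes neither Ido1 (1.84, adjusted p-value 0.137) nor Slc27a2 (0.71, 0.165) was called. Slc27a2 has 74.1% of its reads expected from background. Once the background was subtracted it did not pass the filter on low counts, so the background's part in its value was not tested. Olr1 kept its sign in every alternative run, and its call in 10 of 21.

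Of the 160 listed genes tested, 16 were called positive and 21 negative (3 and 64 with factors from all genes). In the tryptophan list 4 of 23 (17.4%) were positive and none negative, against 26.8% and 4.42% of all genes. Factors from all genes gave 1 positive and 2 negative in that list. Among the listed genes named by the rule, the interaction was negative for Gch1 (-1.33) and Pts (-1.09) of tetrahydrobiopterin synthesis, Tgif1 (-0.95) of the TGF-beta list, Il1rn (-1.20) and Jak2 (-0.85) of the cytokine list, Plin2 (-1.17) and Fabp5 (-1.14) of lipid handling, and Ddit3 (-1.20) and Rel (-0.96) of the regulators. It was positive for Il6st (0.80), Lpl (0.90), Slc27a1 (0.84) and Epas1 (1.26). The negative values were larger in size with factors from all genes. The positive ones were not called with those factors, which gave 0.18, 0.26, 0.21 and 0.63 in the same order.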

How the results depend on the processing

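Each count and each value of the 8 genes was recomputed under the alternatives. Of 854 values of single genes, 742 kept their side of the threshold, 76 lost the call, 36 gained it and none that was called changed sign. Nos2 with treatment kept its call in both grafts in every alternative that tested it. In control tumours, the 6 effector genes called became 3 on library totals alone, and 3 to 6 with 1 library left out. In Sox2Hi tumours, the 2 called became 1 with all-gene TMM factors, 1 among genes of at least 5 CPM (where Nos2 was not tested), and 1 or 2 with 1 library left out. Between naive grafts, 0 became 2 by DESeq2 and 1 by limma-voom, and 0 to 2 with 1 library left out. Between treated grafts, 1 became 4 with all-gene factors, 3 by DESeq2, 2 on library totals alone, and 0 with RLE factors, limma-voom, background subtracted, the Ddx3y covariate, the groups compared alone or genes of at least 5 CPM (where Nos2 was not tested), and 0 to 2 with 1 library left out. For the interaction, 3 became 5 with all-gene factors, 5 by DESeq2, 1 with RLE factors, 0 among genes of at least 5 CPM and 0 with background subtracted, and 1 to 3 with 1 library left out.

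With the replicate block by title number over all libraries, the number called was 1 with treatment in Sox2Hi tumours, 3 between treated grafts and 4 for the interaction, and by description number 2 with treatment in Sox2Hi tumours (Nos2 and Osm in place of Ido1), 0 between treated grafts and 1 for the interaction. With treatment in control tumours the block by title number ended the call of Il4i1 (adjusted p-value 0.0565). The block in the naive libraries alone, the alternative added after seeing the data, called 0 of the 8 and 20 listed genes. The naive and treated libraries share only a number.

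Of the 160 genes tested in the 6 lists, 98 (61.3%, against 48.6% of all genes and 55.5% of genes of at least 5 CPM) were called with treatment in control tumours, 68 with background subtracted, 78 among genes of at least 5 CPM, and 71 to 100 with 1 library left out. The 14 called in Sox2Hi tumours (8.75%, all genes 5.02%) became 30 by DESeq2, 37 by limma-voom, 27 among genes of at least 5 CPM, 23 with the groups compared alone, and 0 (without Sox2Hi treated replicate 2) to 25 with 1 library left out. The 3 called between naive grafts (1.88%, all genes 5.80%) became 6 with all-gene factors, 51 by DESeq2, 33 by limma-voom, 5 among genes of at least 5 CPM, 8 and 1 with the replicate block by title and description number, 1 with no filter, 0 with RLE factors, library totals, background subtracted, the Ddx3y covariate or the groups alone, and 0 to 13 with 1 library left out. The 18 called between treated grafts (11.3%, all genes 12.99%) became 41 with all-gene factors, 46 on library totals, 63 by DESeq2, 2 with background subtracted, 30 and 9 with the replicate block by title and description number, 3 with the groups alone, and 0 (without Sox2Hi treated replicate 1) to 27 with 1 library left out. The 37 called for the interaction (23.1%, all genes 31.2%) became 67 with all-gene factors, 80 by DESeq2, 17 among genes of at least 5 CPM, 1 with background subtracted, 23 with the block by description number, and 6 (without Sox2Hi treated replicate 1) to 38 with 1 library left out. The cause of these changes was not tested. A group of 2 libraries leaves 1 when a library is dropped, and that one is then assumed to vary like the other groups. Depth limits Il4i1 and Slc27a2, with 11 to 34 reads per library, and naive Nos2, with 22 to 45.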
